A study of Mus musculus with 4 samples.

Results

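The enzymes that build heme were examined in sorted mouse bone marrow cells lacking the histone deacetylase Hdac3: Alas1 and Alas2, which catalyse the same opening step, then Alad, Uros, Urod, Cpox, Ppox and Fech, together with Hmox1, which breaks heme down. These are 9 of the 19938 genes measured with a probe set of their own, and each had 1 such probe set. The set was chosen from values of these same arrays: Alas1 was already known to differ widely between null and wild-type cells, and the other members were added by their place in the pathway. For that reason every difference of a member is given as a description, with its standard error and without a p-value.

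Expression was measured on 4 Affymetrix arrays of LSK cells, the marrow fraction that carries Sca-1 and Kit, lacks mature lineage markers and holds the blood stem cells with the earliest progenitors. The null LSK/Flt3- group (genotype Vav-Cre/Hdac3Flox/-, in which a Cre recombinase under the blood-wide Vav promoter deletes the floxed Hdac3 allele and the other allele is already missing) had 2 arrays, called null replicates 1 and 2. Of wild-type mice there was 1 array of LSK/Flt3+ cells and 1 of LSK/Flt3- cells, called the Flt3+ and the Flt3- wild type from here on; all mice were on the C57BL/6 background. Each sample pooled sorted cells of 5 to 30 mice. No label gives the age of the mice or says that the null replicates came from separate mice. These 2 samples may thus differ for technical reasons alone. A standard error (SE) comes from the limma fit described below, with 1 residual and 9.01 prior degrees of freedom. It rests mostly on the spread of all genes at a like level, and less on the gap between these 2 samples in the gene itself. The single wild-type arrays are taken to vary in the same way. Flt3 is a cytokine receptor that LSK cells gain as they turn from the stem cell state towards lymphoid fates. Null cells differ from the Flt3+ wild type in both genotype and sort gate, and the 2 cannot be told apart in that comparison.

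Heme is an iron-bearing ring that gives hemoglobin, cytochromes, catalase and myeloperoxidase their activity. Its synthesis starts in the mitochondrion, where 5-aminolevulinate synthase joins glycine to succinyl-CoA, runs through the cytosol and ends in the mitochondrion with the insertion of iron by Fech. That opening step limits the pathway and has 2 genes: Alas1 serves most tissues and is held down by heme itself, while Alas2 serves red cell precursors and is switched on by Gata1.

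All levels below are log2 values made by the authors with RMA, and a log2 difference of 1 is a change of 2-fold. Hdac3 itself had log2 levels of 5.71 and 5.04 on the null arrays (replicate 1 first), against 6.33 for the Flt3+ and 6.18 for the Flt3- wild type; no source used here says whether its probes lie in the deleted part. Kit, which defines the sorted fraction, was at 10.77 and 10.36 on the null arrays, 10.11 for the Flt3+ and 10.25 for the Flt3- wild type. Flt3 RNA stood at 7.84 and 7.02 on the null arrays, 10.07 for the Flt3+ and 9.18 for the Flt3- wild type. The wild-type cells sorted as lacking the Flt3 protein were thus not low in its RNA compared with the null cells. The array medians over genes ran from 5.50 to 5.70, highest on null replicate 1, and the median gene was 0.14 higher on null replicate 1 than on replicate 2. Over all genes, the SE of a null minus wild-type difference had a median of 0.34. In bulk samples such as these, fewer cells of a type and less RNA per cell cannot be told apart.

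Alas1 was the member with the largest difference between null and wild-type cells. It read 8.19 on null replicate 1 and 9.08 on null replicate 2, against 6.61 for the Flt3+ and 6.41 for the Flt3- wild type. Both null arrays lay above both wild-type arrays, and the lower null array was still 1.58 above the higher wild-type one. Null cells averaged 8.64 ± 0.63 (SD, n = 2), which put them 2.02 ± 0.43 (SE) above the Flt3+ wild type, a fold of 4.07. Against the Flt3- wild type the log2 difference was 2.23 ± 0.43 (SE), a fold of 4.70, made up of 3.45-fold on null replicate 1 and 6.40-fold on null replicate 2. The wild-type arrays differed from each other by a log2 difference of only 0.21 in Alas1.

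By size alone, Alas1 was at least 2-fold higher on both null arrays in each comparison. It was the 1 member of 9 to be so against the Flt3+ wild type, where 0.261% of all genes were, and the 1 member of 9 against the Flt3- wild type, where 0.251% of all genes were. None of the 9 members was 2-fold or more lower on each null array, against 1.08% of all genes for the Flt3+ wild type and 0.381% for the Flt3- wild type. Since Alas1 was picked for this difference, nothing is read from these shares.

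**Figure D1:**
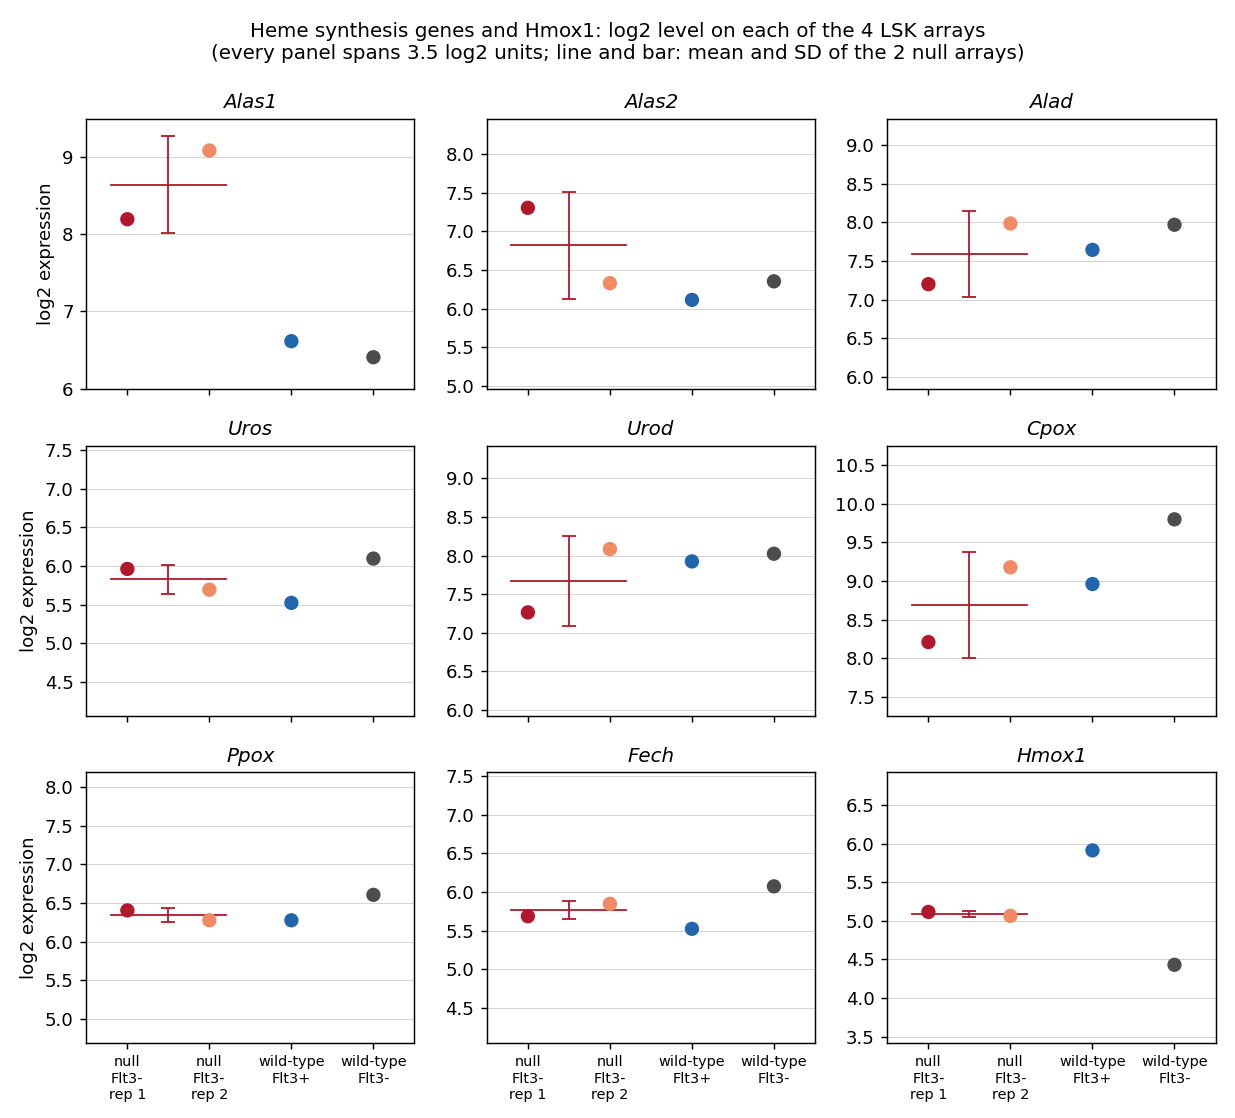
Log2 level of the 9 genes on each array, with the null arrays at the left (line and bar, mean and SD of the 2) and the Flt3+ and Flt3- wild-type arrays at the right; every panel spans the same range of log2 units around its own centre. Alas1 sits at 8.19 and 9.08 on the null arrays, above 6.61 and 6.41 on the wild-type ones, while the panels of the later enzymes overlap or lie lower in null cells.

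Alas2, the red cell form of the same enzyme, did not share this pattern. Its levels were 7.30 and 6.33 on null replicates 1 and 2, against 6.11 for the Flt3+ and 6.35 for the Flt3- wild type. Null replicate 1 stood apart from the other 3 arrays, and null replicate 2 lay level with the Flt3- wild type. The mean log2 difference of 0.46 ± 0.44 (SE) from the Flt3- wild type was therefore carried by replicate 1 (0.95 on replicate 1 and -0.02 on replicate 2), and that of 0.70 ± 0.44 (SE) from the Flt3+ wild type was 1.19 on replicate 1 and 0.22 on replicate 2. The 2 isozyme genes went opposite ways between the null replicates: Alas1 was 0.89 lower and Alas2 0.98 higher on replicate 1 than on replicate 2.

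The stretches just upstream of the 2 isozyme genes are shown because these genes code for the same reaction yet had unlike patterns across the arrays. They are the 250 bases before the annotated start, from RefSeq on build GRCm38.p6, at chr9:106247955-106248204 on the minus strand for Alas1 (the more upstream of 2 annotated starts) and chrX:150547167-150547416 on the plus strand for Alas2; capitals mark matches to the motifs named below.
Alas1: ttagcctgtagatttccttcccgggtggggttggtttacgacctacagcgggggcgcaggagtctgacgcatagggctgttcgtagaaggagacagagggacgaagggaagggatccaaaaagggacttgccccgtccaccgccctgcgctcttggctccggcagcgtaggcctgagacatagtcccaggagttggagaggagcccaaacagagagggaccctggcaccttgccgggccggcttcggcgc
Alas2: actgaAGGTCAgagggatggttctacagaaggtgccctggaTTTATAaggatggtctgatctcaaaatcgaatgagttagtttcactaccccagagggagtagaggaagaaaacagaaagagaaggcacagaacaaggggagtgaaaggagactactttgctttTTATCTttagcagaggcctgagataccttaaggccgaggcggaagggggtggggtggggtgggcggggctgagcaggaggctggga

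Both strands of each window were searched for the GATA motif (NGATAN, with A or T as its first letter and A or G as its last), the nuclear receptor core AGGTCA, the E-box CACGTG, the antioxidant element TGACNNNGC, the NRF1 core GCATGCGC, CCACACCC and TATAAA. The printed Alas1 window held none of these, and its G and C content was 62.4%. In the window of the second annotated Alas1 start, which lies within the gene's first bases and is not printed, G and C content was 74.4% and the NRF1 core matched on both strands in 1 stretch between 195 and 186 bases before that start. Of all genes' windows, 2.26% of 32851 hold that core. The Alas2 window held 1 GATA motif 86 to 81 bases before the start (26.5% of all windows hold one), 1 nuclear receptor core 245 to 240 bases before it (14% of all windows) and 1 TATAAA 209 to 204 bases before it (12.4% of all windows). A match is a run of letters, which says nothing of binding.

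The 6 enzymes after the opening step did not follow Alas1. Against the Flt3- wild type all 6 averaged lower in null cells, with a median log2 difference of -0.33, beside a median of 0.09 over all genes, of which 12968 were higher and 6963 lower. Against the Flt3+ wild type 3 of the 6 were higher and 3 lower, with a median of 0.006 beside 0.05 over all genes. None of the 6 was at least 2-fold apart in the same direction on both null arrays in either comparison.

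Cpox, coproporphyrinogen oxidase, which works in the space between the mitochondrial membranes, was the farthest below. It read 8.21 on null replicate 1 and 9.18 on null replicate 2, against 8.96 for the Flt3+ and 9.80 for the Flt3- wild type. Both null arrays were below the Flt3- wild type, by log2 differences of -1.59 and -0.62, but they lay on either side of the Flt3+ wild type. The mean difference was -1.11 ± 0.44 (SE) from the Flt3- wild type and -0.27 ± 0.44 (SE) from the Flt3+ wild type.

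Alad, which joins pairs of aminolevulinate molecules into porphobilinogen, read 7.20 on null replicate 1 and 7.99 on null replicate 2, against 7.65 for the Flt3+ and 7.97 for the Flt3- wild type. Urod, which trims the side chains of uroporphyrinogen, had log2 levels of 7.26 and 8.08 on the null arrays, against 7.92 for the Flt3+ and 8.02 for the Flt3- wild type. In both genes null replicate 1 was the lowest of the 4 arrays, and null replicate 2 differed from the Flt3- wild type by no more than 0.06. Their mean log2 differences from the Flt3- wild type, -0.38 ± 0.42 (SE) for Alad and -0.35 ± 0.42 (SE) for Urod, were smaller than their standard errors.

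Uros, which closes the ring, read 5.96 on null replicate 1 and 5.69 on null replicate 2, against 5.52 for the Flt3+ and 6.10 for the Flt3- wild type. Ppox, the mitochondrial enzyme before the last step, had 6.40 and 6.28 on the null arrays, against 6.28 for the Flt3+ and 6.61 for the Flt3- wild type. Fech, ferrochelatase, had 5.69 and 5.85 on the null arrays, against 5.52 for the Flt3+ and 6.07 for the Flt3- wild type. In these 3 genes both null arrays lay below the Flt3- wild type, by mean log2 differences of -0.27 ± 0.34 (SE) for Uros, -0.27 ± 0.34 (SE) for Ppox and -0.31 ± 0.33 (SE) for Fech, none larger than its standard error. In Uros and Fech both null arrays were above the Flt3+ wild type, and in Ppox replicate 1 was above it and replicate 2 level with it.

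**Figure D2:**
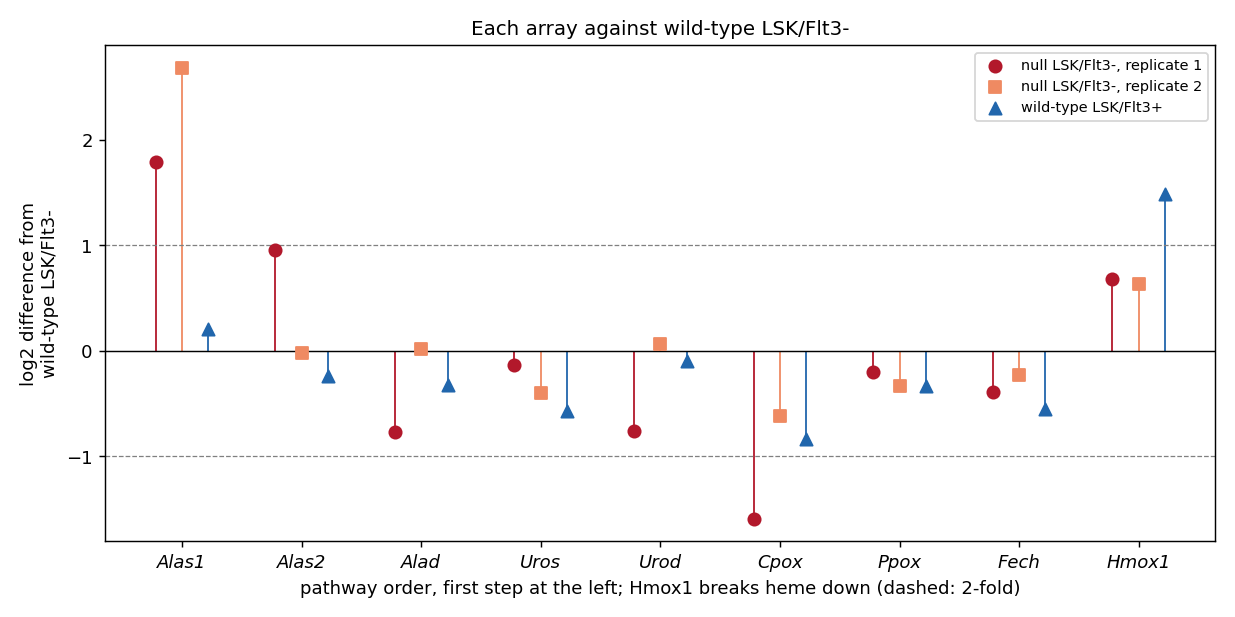
Log2 difference of null replicate 1 (circles), null replicate 2 (squares) and the Flt3+ wild type (triangles) from the Flt3- wild type, for the 9 genes in pathway order; dashed lines mark 2-fold. Alas1 stands at 1.79 and 2.68 on the null arrays, whereas from Alad to Fech the Flt3+ wild-type array lies below 0 at each step, as the null arrays mostly do.

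The later enzymes also read lower than the Flt3- wild type when the wild-type fractions were compared. Both sets of differences are taken from the same single Flt3- wild-type array. They are therefore not independent, and nothing is read from their shared direction. Each of the 6 enzymes was lower in the Flt3+ wild type than in the Flt3- wild type, by a median of -0.44, where all genes had a median of 0.04. The differences were -0.84 for Cpox, -0.57 for Uros, -0.55 for Fech, -0.33 for Ppox and Alad and -0.10 for Urod, and with 1 array a group they have no replicate check. None was at least 2-fold, a size reached downward by 0.176% of all genes.

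Hmox1, heme oxygenase 1, which opens the heme ring and frees its iron, had the lowest spread between the null arrays and the widest difference between the wild-type ones. Its levels were 5.12 and 5.07 on null replicates 1 and 2, against 5.91 for the Flt3+ and 4.43 for the Flt3- wild type. Null cells thus lay between the wild-type fractions, with a log2 difference of -0.82 ± 0.31 (SE) from the Flt3+ wild type and 0.66 ± 0.31 (SE) from the Flt3- wild type. Between the wild-type arrays Hmox1 was 2.79-fold higher in the Flt3+ wild type (log2 difference 1.48), the 1 member of 9 at least 2-fold apart there, where 0.923% of all genes were 2-fold higher.

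Macrophages of the marrow carry much Hmox1, and most of a list of 14 macrophage genes, Hmox1 among them, differed between the wild-type arrays in the same direction. Leaving Hmox1 out, 12 of the 13 others were higher in the Flt3+ wild type than in the Flt3- wild type, with a median log2 difference of 0.85 beside 0.04 over all genes. Their summed log2 levels were 62.28 and 60.53 on null replicates 1 and 2, 78.20 for the Flt3+ and 64.20 for the Flt3- wild type. The complement gene C1qc was at 3.59 and 4.05 on the null arrays, 8.18 for the Flt3+ and 4.89 for the Flt3- wild type. Adgre1, which encodes F4/80, was at 4.52 and 4.13 on the null arrays, 7.17 for the Flt3+ and 4.21 for the Flt3- wild type. These 2 genes and Cd163, the hemoglobin scavenger receptor, fell in null against the Flt3+ wild type by the limma test over all genes. The log2 difference of Cd163 was -1.98 there and -0.24 from the Flt3- wild type. Limma adjusted p ran from 0.000514 for C1qc to 0.0432 for Cd163. The Cd163 call was lost without the mean-dependent prior (limma adjusted p = 0.0608). The exception in the list was Slc40a1, the iron exporter ferroportin, at 4.27 and 5.33 on the null arrays, 5.87 for the Flt3+ and 6.16 for the Flt3- wild type. Log2 array values have no true zero, so no marker can be called absent, and the part of macrophage RNA in the Hmox1 values was not tested.

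The null replicates differed from each other in 5 of the 9 members by 0.79 or more on the log2 scale. On replicate 1, Cpox was lower than on replicate 2 by 0.97, Alas1 by 0.89, Urod by 0.82 and Alad by 0.79, whereas Alas2 was higher by 0.98. A gap as large as that of Alad was found in 7.05% of all genes, and one as large as that of Alas2 in 3.09%. No member reached a gap of 2-fold, which 2.82% of all genes did. Uros, Ppox, Fech and Hmox1 differed between the replicates by 0.27 or less, close to the median gap of 0.27 over all genes or below it.

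Among the members, Alad and Urod had the most similar profiles over the 4 arrays, at a distance of 0.18 log2 units between profiles centred on their own means. Cpox lay 0.61 from Alad, Uros 0.23 from Ppox, and Alas1 at least 2.06 from every other member, with Alas2 the nearest. Windows upstream of Alad, Urod and Cpox, the 3 enzymes that were lowest on null replicate 1, are shown in the same way; they lie at chr4:62520064-62520313 (minus strand, the more upstream of 2 annotated starts), chr4:116994414-116994663 (minus strand) and chr16:58669958-58670207 (plus strand) of GRCm38.p6, and capitals again mark the motifs searched.
Alad: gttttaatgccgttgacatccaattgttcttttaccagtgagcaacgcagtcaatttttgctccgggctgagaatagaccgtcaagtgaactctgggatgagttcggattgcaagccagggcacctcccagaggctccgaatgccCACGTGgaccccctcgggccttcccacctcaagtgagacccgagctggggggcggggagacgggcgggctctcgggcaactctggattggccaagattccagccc
Urod: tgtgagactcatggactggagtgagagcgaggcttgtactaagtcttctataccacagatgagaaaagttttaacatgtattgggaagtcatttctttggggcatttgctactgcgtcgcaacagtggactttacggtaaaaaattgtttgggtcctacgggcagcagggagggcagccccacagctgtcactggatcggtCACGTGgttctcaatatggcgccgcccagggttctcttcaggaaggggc
Cpox: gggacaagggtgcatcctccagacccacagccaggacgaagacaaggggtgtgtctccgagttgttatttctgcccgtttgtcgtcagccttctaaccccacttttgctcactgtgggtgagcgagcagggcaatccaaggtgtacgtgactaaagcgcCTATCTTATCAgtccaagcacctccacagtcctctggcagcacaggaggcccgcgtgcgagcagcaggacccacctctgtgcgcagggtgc

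The capitals in Alad and Urod are 1 E-box each, 105 to 100 and 49 to 44 bases before the start, and 6.02% of all windows hold an E-box. Those in Cpox are 2 GATA motifs that share 1 base, between 91 and 81 bases before the start. Of the 7 members with a window, Uros also held an E-box, at the far end of its more upstream window, and 2 GATA motifs in its other one, while the second Alad window held 1 more E-box and Ppox held none of the motifs. No window of these 7 members held the antioxidant element, which 10.2% of all windows hold, or CCACACCC, which 3.2% hold. Windows of Fech and Hmox1 were not searched.

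Most red cell genes measured were also lower on null replicate 1. Of 27 erythroid genes measured, 22 were lower on null replicate 1 than on replicate 2, with a median gap of -0.49 beside 0.14 over all genes, and 16 (59.3%) had their lowest value of the 4 arrays there, as 19.4% of all genes did. The same held for 3 of the 9 members, namely Alad, Urod and Cpox. Car1, carbonic anhydrase of early red cell precursors, was at 6.44 and 10.92 on null replicates 1 and 2, 11.37 for the Flt3+ and 11.81 for the Flt3- wild type. The summed log2 levels of the 27 genes were 159.24 and 178.08 on the null arrays, 177.61 for the Flt3+ and 187.19 for the Flt3- wild type. Gata1, the activator of Alas2 in red cell precursors, was at 5.42 and 7.09 on the null arrays, 6.03 for the Flt3+ and 6.42 for the Flt3- wild type. The null array with more Alas2 RNA thus had less Gata1 RNA. The part of red cell precursors in the values of Alad, Urod and Cpox was not tested.

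**Figure D3:**
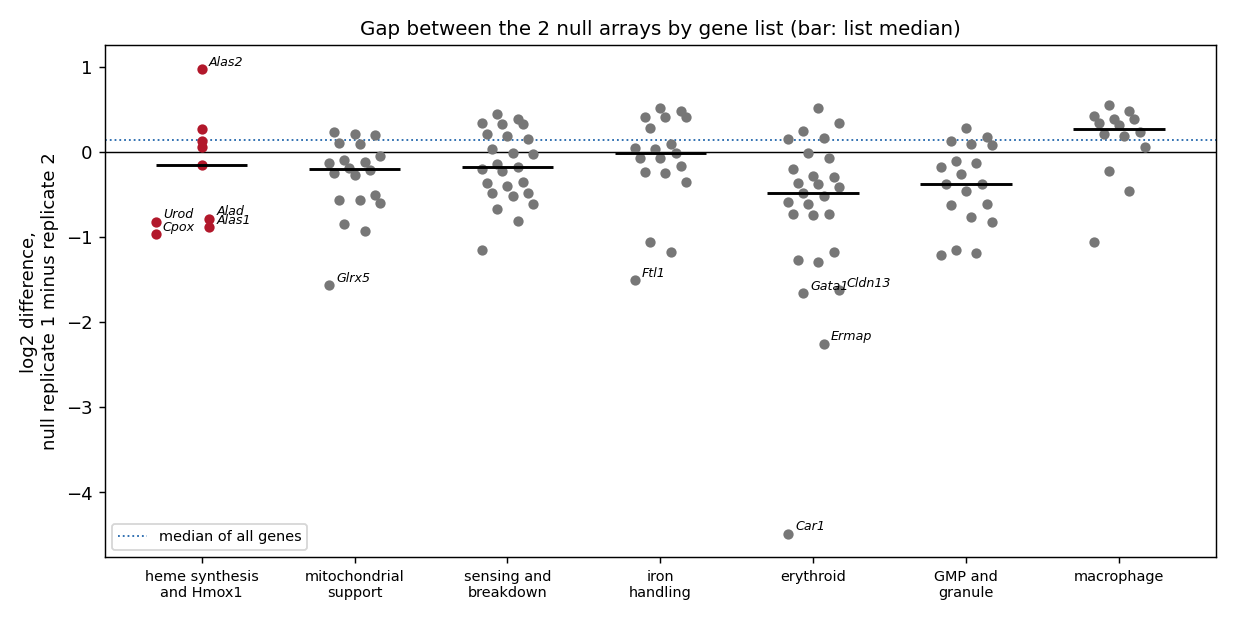
Log2 difference between null replicates 1 and 2 for each gene of 7 lists, with the list median as a bar and the median of all genes dotted. Alad, Urod, Cpox and Alas1 lie between -0.79 and -0.97 and Alas2 at 0.98, and the erythroid list reaches from Car1 at -4.49 upward, with a median of -0.49.

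Both erythroid comparisons gave 0 genes past limma over all genes. At an unadjusted p under 0.05, 1 was higher and 12 were lower in null against the Flt3- wild type, and 1 was higher and 3 were lower against the Flt3+ wild type. Of all 19938 genes, 219 were higher and 259 lower at that threshold against the Flt3- wild type, and 225 higher and 460 lower against the Flt3+ wild type. The Rh complex gene Rhag was at 4.80 and 6.07 on the null arrays, 6.82 for the Flt3+ and 7.61 for the Flt3- wild type. Cldn13 was at 5.08 and 6.71 on the null arrays, 7.83 for the Flt3+ and 8.42 for the Flt3- wild type. Together with Rhd, these were the 3 erythroid genes 2-fold or more lower on each null array than in the Flt3- wild type. Car2, another carbonic anhydrase, went the other way, at 10.73 and 11.10 on the null arrays, 9.61 for the Flt3+ and 9.996 for the Flt3- wild type.

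Other genes of heme and iron metabolism were taken from 5 lists of 128 genes, of which 118 were measured; the other 10 were not analysed here. In null against the Flt3- wild type limma over all genes called none of the 118 in either direction, where 0.0201% of all genes passed as higher and 0% as lower. At an unadjusted p under 0.05, 5 were higher and 8 lower, beside 219 and 259 of all genes. Against the Flt3+ wild type 0 rose and 2 fell by limma, where 0.0351% of all genes rose and 0.281% fell. The 2 that fell were Cd163 and Ptgs2, the heme-bearing cyclooxygenase 2 (log2 difference -2.36 ± 0.36 SE, limma adjusted p = 0.0249). At an unadjusted p under 0.05, 4 were higher and 9 lower, beside 225 and 460 of all genes. The deleted gene, Hdac3, is 1 of those 9.

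The list of mitochondrial carriers, iron-sulfur assembly and other support for heme synthesis had a median log2 difference of 0.03 from the Flt3- wild type and 0.002 from the Flt3+ wild type over its 20 measured genes. Nfs1, the cysteine desulfurase that supplies sulfur for iron-sulfur clusters, was at 6.96 and 6.85 on the null arrays, 6.05 for the Flt3+ and 6.09 for the Flt3- wild type. It was the member of this list whose null arrays lay farthest above both wild-type arrays, though it did not pass limma over all genes (log2 difference 0.81 from the Flt3- wild type, adjusted p = 1). Glrx5, a glutaredoxin that passes such clusters on, was at 7.22 and 8.79 on the null arrays, 8.74 for the Flt3+ and 8.92 for the Flt3- wild type, low on null replicate 1 alone. Slc25a38, the carrier linked to glycine entry for the opening step, was nearly level at 5.62 and 5.89 on the null arrays, 5.73 for the Flt3+ and 5.70 for the Flt3- wild type. Clpx, whose product acts on the aminolevulinate synthase protein in the mitochondrion, was at 7.67 and 7.46 on the null arrays, 7.37 for the Flt3+ and 7.89 for the Flt3- wild type.

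Among 25 genes of heme sensing, transport and breakdown, Hebp1 and Maff were 2-fold or more lower on each null array than in the Flt3- wild type. Hebp1, a heme-binding protein, was at 5.83 and 5.97 on the null arrays, 6.71 for the Flt3+ and 7.67 for the Flt3- wild type (log2 difference -1.77 ± 0.35 from the Flt3- wild type, SE; limma adjusted p = 0.346). Maff, a small Maf partner of Bach1 and Nfe2l2, was at 4.55 and 5.04 on the null arrays, 5.52 for the Flt3+ and 6.28 for the Flt3- wild type (-1.49 ± 0.34, SE; limma adjusted p = 0.632). Blvrb, a biliverdin reductase abundant in red cells, was at 5.97 and 7.13 on the null arrays, 7.58 for the Flt3+ and 7.79 for the Flt3- wild type, lowest on null replicate 1 as Alad and Urod were. Bach1, the heme-sensing repressor of Hmox1, was at 7.17 and 7.57 on the null arrays, 7.27 for the Flt3+ and 7.30 for the Flt3- wild type. Nfe2l2, its activator, was at 9.06 and 9.42 on the null arrays, 8.87 for the Flt3+ and 8.82 for the Flt3- wild type. Hmox2, the constitutive heme oxygenase, was at 8.33 and 8.01 on the null arrays, 8.24 for the Flt3+ and 8.38 for the Flt3- wild type.

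Of 19 iron genes, none was 2-fold or more apart on each null array. Tfrc, the transferrin receptor through which developing blood cells take up iron, was at 9.49 and 9.75 on the null arrays, 9.12 for the Flt3+ and 9.48 for the Flt3- wild type. The ferritin heavy chain gene Fth1 was between 11.71 and 11.87 on all 4 arrays. The light chain gene Ftl1 was at 7.83 and 9.34 on null replicates 1 and 2, 8.90 for the Flt3+ and 8.48 for the Flt3- wild type. Slc11a2, the iron transporter DMT1, was at 6.01 and 6.09 on the null arrays, 6.32 for the Flt3+ and 6.84 for the Flt3- wild type.

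Factors known to act on Alas1, mostly from work in liver, gave 0 of 18 measured genes past limma in either comparison. At an unadjusted p under 0.05, 0 were higher and 1 lower against the Flt3- wild type, beside 219 and 259 of all 19938 genes. Against the Flt3+ wild type 0 were higher and 2 lower, beside 225 and 460 of all genes. These 2 were Egr1 and Hdac3 itself, which is in this list. Since deletion of Hdac3 is part of the design, nothing is read from its fall. Nr1d1, whose product Rev-erb alpha binds heme and represses through NCoR and Hdac3, was at 6.28 and 6.09 on the null arrays, 6.04 for the Flt3+ and 5.90 for the Flt3- wild type. Its relative Nr1d2 was at 7.77 and 7.44 on the null arrays, 7.92 for the Flt3+ and 7.83 for the Flt3- wild type. Nrf1, a transcription factor of nuclear genes for mitochondria, was at 7.19 and 6.996 on the null arrays, 6.71 for the Flt3+ and 6.63 for the Flt3- wild type. Both null arrays were above both wild-type ones (log2 difference 0.46 ± 0.35 from the Flt3- wild type, SE; limma adjusted p = 1). Ppargc1a, the coactivator that raises Alas1 in fasted liver, was at 4.06 and 4.09 on the null arrays, 4.69 for the Flt3+ and 4.51 for the Flt3- wild type. Egr1 was 2-fold or more lower on each null array than in the Flt3+ wild type (log2 difference -1.35, limma adjusted p = 0.444).

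The list for hemoproteins and the making of heme a and c had 38 measured genes. It also holds some whose proteins carry no heme, Alox5, Sqor and Cyb5r3 among them. Its median log2 difference from the Flt3- wild type was 0.12, beside 0.09 over all genes. Of the 38, 24 were higher and 14 lower in null than in the Flt3- wild type. That split is close to the 12968 higher and 6963 lower of all genes. Mpo, the heme enzyme of neutrophil granules, was at 12.12 and 12.30 on the null arrays, 11.47 for the Flt3+ and 11.35 for the Flt3- wild type (log2 difference 0.86 ± 0.28 from the Flt3- wild type, SE; limma adjusted p = 1). Cybb, the heme-bearing subunit of the phagocyte oxidase, was at 7.68 and 7.48 on the null arrays, 8.83 for the Flt3+ and 6.65 for the Flt3- wild type. Null cells lay between the wild-type fractions as they did for Hmox1. The catalase gene Cat was at 7.84 and 8.30 on the null arrays, 8.21 for the Flt3+ and 8.09 for the Flt3- wild type. Cox10 and Cox15, which make heme a, had log2 differences of 0.18 and -0.02 from the Flt3- wild type.

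The 5 genes whose profile over the 4 arrays was most like that of Alas1 were Snora73a, a small nucleolar RNA, at a distance of 0.61 log2 units, the monocyte chemokine receptor gene Ccr2 at 0.64, the granule protease gene Prtn3 at 0.67, Ccnb1ip1 at 0.69 and the cytotoxic granule protease gene Gzmb at 0.70. The closest other heme synthesis gene was Alas2 at 2.06. Since the 5 genes were picked as the nearest of all genes, their lying nearer than the members was largely set by that choice. Nothing is read from it. Prtn3, for example, was at 7.86 and 8.63 on the null arrays, 6.97 for the Flt3+ and 6.55 for the Flt3- wild type. Ccr2 was at 8.28 and 9.10 on the null arrays, 6.54 for the Flt3+ and 5.69 for the Flt3- wild type.

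Of 19 measured granulocyte-monocyte progenitor and granule genes, 16 were higher and 3 lower in null cells than in the Flt3- wild type, with a median log2 difference of 0.69, beside 12968 higher, 6963 lower and a median of 0.09 over all genes. Against the Flt3+ wild type 13 were higher and 6 lower, with a median of 0.48, beside 11341 higher, 8588 lower and a median of 0.05 over all genes. Among those lower, Csf1r, Ms4a6c and F13a1 were so by 2-fold or more on each null array. The summed log2 levels of the 19 genes were 143.25 and 150.80 on null replicates 1 and 2, 141.40 for the Flt3+ and 131.27 for the Flt3- wild type. Ms4a3, typical of these progenitors, rose by limma over all genes in both comparisons (log2 difference 3.11 ± 0.35 from the Flt3- wild type, SE; adjusted p = 0.0321), though not against the Flt3- wild type after median centring or quantile normalization, where its adjusted p reached 0.181. Of 13 mast cell and basophil genes, 10 were higher and 3 lower in null cells than in the Flt3- wild type, with a median of 0.64, and 7 were higher and 6 lower than in the Flt3+ wild type, with a median of 0.09. They had summed log2 levels of 81.37 and 87.56 on the null arrays, 80.95 for the Flt3+ and 75.59 for the Flt3- wild type. None passed limma in either comparison. At an unadjusted p under 0.05, 5 were higher and 0 lower than in the Flt3- wild type, beside 219 and 259 of all 19938 genes. Against the Flt3+ wild type 3 were higher and 0 lower, beside 225 and 460 of all genes. The part of these cell types in the Alas1 difference was not tested. Megakaryocyte genes had a median of 0.43 over 10 genes and lymphoid genes one of -0.28 over 15, of which Gimap4 (a lymphocyte GTPase) rose against both wild-type arrays (against the Flt3- one its adjusted p also reached 0.181 under other settings). By limma, Dntt, Satb1, Flt3 and Il7r fell against the Flt3+ wild type, as the monocyte receptor gene Csf1r of the granulocyte-monocyte list did. The Flt3 call was lost after quantile normalization (limma adjusted p = 0.0837) and when genes averaging below 6 were dropped (limma adjusted p = 0.0772). Since these groups were sorted as lacking and as carrying Flt3, nothing is read from the fall of Flt3. Slamf1, listed beside Flt3, Kit and Sca-1 but not part of the LSK/Flt3 definition, rose against the Flt3+ wild type by limma. It was also 2-fold or more higher on each null array than in the Flt3- wild type (limma adjusted p = 0.174).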

How the data were processed

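RNA of 4 pooled cell samples was labelled with biotin and run on Affymetrix arrays, per the labels' protocols. The authors deposited 1 log2 value for each probe set and array, computed by RMA in affy 1.23 per the submitters' processing notes. The sources used here give neither a genome build nor scan dates. The array medians were unequal, so the scaling these values carry is not settled, and whether a gene stood above background is unknown. The number of arrays limits the precision.

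Of 35556 probe sets, 21789 have a single symbol in the platform's annotation, 1621 several and 12146 none listed; the last 2 kinds were left out. Where a gene had several probe sets, the one of highest average level stood for it, which left 19938 genes. A single limma 3.58.1 model (R 4.3.3) took in the 4 arrays as 3 groups with a mean-dependent prior, with 1 residual and 9.01 prior degrees of freedom. Tests were two-sided, with Benjamini-Hochberg adjustment across the 19938 genes and a threshold of 0.05, and the fit was tested on simulated data. Both null comparisons share the null arrays, so they are not independent. The members and the 12 other gene lists (243 genes besides the members, 217 measured) were chosen with earlier results of these data known; list membership overlaps in part. Genes were named by rule: all members, list genes past the test or 2-fold or more apart on each null array, otherwise up to 2 each way with the largest difference, and the 5 profiles nearest to Alas1 by Euclidean distance, predicted genes passed over. Not all genes the rule allows are printed. Other genes named for their role in heme or iron metabolism, Kit and Gata1 among them, were chosen after their values were seen. Upstream sequences of the members were matched by symbol, with windows on 1 chromosome left out. This gave windows for 7 of 9 members, all but Fech and Hmox1. Alternatives were other scalings, probe set summaries, spread estimates, filters and samples.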

Additional observations from a re-analysis of the deposited data

How the results depend on the processing

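The log2 difference of Alas1 from the Flt3- wild type lay between 2.12 and 2.25 after quantile normalization, median centring, cyclic loess or averaging of probe sets, and between 1.79 and 2.68 with 1 null replicate left out; from the Flt3+ wild type the ranges were 1.99 to 2.05 and 1.58 to 2.47. Centring the arrays lowered every difference from the Flt3- wild type by 0.12, and with it the later enzymes lay that much lower. Each member has 1 probe set, so averaging changed none of them. Without null replicate 1, Alad (0.02) and Urod (0.06) were no longer below the Flt3- wild type and Alas2 (-0.02) no longer above; without null replicate 2, Cpox was 2-fold lower than in the Flt3- wild type and Alas2 2-fold higher than in the Flt3+ wild type. The members at least 2-fold apart thus numbered 0 to 1 lower than the Flt3- wild type and 1 to 2 higher than the Flt3+ wild type with a replicate left out.

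Of the 217 related genes, limma over all genes called 2 higher and 0 lower than in the Flt3- wild type as reported. Those called higher numbered 0 after quantile normalization, 0 after median centring and 5 with robust estimation. They numbered 1 when genes averaging below 6 were dropped and 1 with only the 2 groups compared. With robust estimation, 2 were called lower. Against the Flt3+ wild type limma called 3 higher and 9 lower, with the sort marker gene Flt3 among the 9. With robust estimation 5 were called higher and 11 lower. Those called lower numbered 12 after median centring, 12 after cyclic loess and 8 without the mean-dependent prior. When genes averaging below 6 were dropped, 4 were called lower. The cause of these shifts was not tested, apart from the mean level filter, which tests fewer genes. Over all genes, 0 to 12 were called higher and 0 to 13 lower against the Flt3- wild type (4 and 0 as reported), and 5 to 15 higher and 17 to 101 lower against the Flt3+ wild type (7 and 56 as reported). With a null replicate left out no residual degree of freedom is left, so the related genes were not retested. No paired analysis was possible because the wild-type groups have 1 array each and share no second replicate number with the null group.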
